A study of Homo sapiens with 4 samples.

Results

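This group of genes comprised the transcription factor ATF4, genes known as its targets, and the cytosolic aminoacyl-tRNA synthetases, measured in Huh7 cells exposed to hydrogen peroxide. The 41 genes were chosen by symbol from the 42067 gene names of the deposited tables, 24 of them ATF4 and its targets and 17 synthetases. For each gene the transcript row with the highest read total over the 4 libraries was used, and all 41 passed the filter on low counts. Huh7 is a cell line derived from a human liver cancer (hepatocellular carcinoma). The cells were given 300 µM H2O2 or mock medium for 4 days with daily medium change, and each group had 2 libraries, 1 titled H and 1 titled Q. The sources used here give neither the meaning of the letters nor whether the libraries came from separate cultures, so p-values measure the spread between these libraries, which may be technical.

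ATF4 is the effector of the integrated stress response. Kinases that sense amino acid shortage, misfolded protein in the endoplasmic reticulum, double-stranded RNA or heme shortage phosphorylate the translation factor eIF2. General protein synthesis then falls while the ATF4 messenger is translated more, so the level of ATF4 mRNA need not follow that of the protein. ATF4 protein pairs with C/EBP family proteins and switches on genes for amino acid synthesis and uptake, for one-carbon metabolism and for loading amino acids onto transfer RNA, together with feedback genes that restart translation. In liver the program is known from the response to a diet that lacks an essential amino acid.

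The libraries held 78126878 to 88409567 mapped read mates, 87.4% to 91.7% of the mates sequenced. Of the defining markers of liver cells 9 of 9 were measured, with a summed level of 10899 to 18548 CPM in H2O2 and 5627 to 14338 CPM in mock. The summed levels were 15.8 to 18.2 CPM in H2O2 against 20.5 to 26.0 CPM in mock for 5 measured of 6 fibroblast markers and 2.63 to 2.93 CPM in H2O2 against 2.42 to 3.24 CPM in mock for 3 measured of 5 endothelial markers. For 5 measured of 6 blood cell markers they were 643 to 679 CPM in H2O2 and 482 to 487 CPM in mock. LYZ was the most abundant of these at a mean of 486 CPM, while PTPRC and CD3E averaged 0.145 and 0.110 CPM. The part of these markers in the results below was not tested. Levels are TMM-normalised CPM, that is reads of the chosen row scaled to library size, and every log2 fold change has H2O2 on top. In bulk RNA, fewer cells that express a gene and less RNA per cell cannot be told apart.

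ATF4 and C/EBP proteins bind together to a composite element with the core TGATGNAA, read as TTNCATCA on the other strand. That core was searched on both strands of the RefSeq promoters of build GRCh38.p14, from 250 bases before to 50 bases after each gene's start, of which 33 of the 41 genes had one. It was present in 9 of 33 promoters (27.3%), 3 of 19 among ATF4 and its targets and 6 of 14 among the synthetases, and in 1270 of all 35116 promoters of the same length (3.62%). The asparagine synthetase promoter is shown first since its element is a well-studied one, the alanyl-tRNA synthetase promoter since its match lies upstream of the start, and the lysyl-tRNA synthetase promoter since that gene had the largest difference among the synthetases and no match. Capitals mark the match.
ASNS, chr7:97872359-97872658, minus strand: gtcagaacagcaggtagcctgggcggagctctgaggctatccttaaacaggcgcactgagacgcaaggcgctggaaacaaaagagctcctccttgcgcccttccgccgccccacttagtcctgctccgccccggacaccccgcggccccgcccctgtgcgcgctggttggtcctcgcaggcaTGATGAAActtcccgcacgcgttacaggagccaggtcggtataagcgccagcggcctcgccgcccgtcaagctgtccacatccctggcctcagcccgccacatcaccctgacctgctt
AARS, chr16:70289457-70289756, minus strand: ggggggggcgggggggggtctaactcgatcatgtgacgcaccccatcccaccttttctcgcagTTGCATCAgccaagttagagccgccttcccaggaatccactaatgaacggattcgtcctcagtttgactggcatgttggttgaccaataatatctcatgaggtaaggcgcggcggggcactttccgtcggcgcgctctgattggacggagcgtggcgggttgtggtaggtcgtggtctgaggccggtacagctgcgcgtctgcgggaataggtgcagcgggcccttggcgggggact
KARS, chr16:75647616-75647915, minus strand: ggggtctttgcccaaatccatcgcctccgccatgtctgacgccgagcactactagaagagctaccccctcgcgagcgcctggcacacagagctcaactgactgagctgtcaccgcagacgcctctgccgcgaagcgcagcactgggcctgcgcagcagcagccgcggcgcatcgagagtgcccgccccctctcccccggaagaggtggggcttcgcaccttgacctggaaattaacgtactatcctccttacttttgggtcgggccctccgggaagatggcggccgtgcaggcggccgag

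The matches of ASNS and AARS begin 68 and 187 bases before the start. Those of the other synthetases lie at the start itself, beginning 13 bases before it in IARS, 4 before in MARS, 2 before in CARS, and 2 and 14 bases after it in TARS and NARS. Shown with 10 bases on either side, 5 of the 6 synthetase matches, all but that of NARS, read TTGCATCA, the complementary strand of the NARS match TGATGCAA. Among the transporters, SLC7A1 had the ASNS form 7 bases after its start, and SLC3A2 had TTACATCA 37 bases after its start.
IARS, chr9:92293693-92293720, minus strand: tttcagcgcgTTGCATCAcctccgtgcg
MARS, chr12:57488054-57488081, plus strand: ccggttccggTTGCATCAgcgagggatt
CARS, chr11:3057408-3057435, minus strand: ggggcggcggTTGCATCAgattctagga
TARS, chr5:33440957-33440984, plus strand: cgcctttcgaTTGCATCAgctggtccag
NARS, chr18:57621805-57621832, minus strand: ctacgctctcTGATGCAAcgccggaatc
SLC7A1, chr13:29595664-29595691, minus strand: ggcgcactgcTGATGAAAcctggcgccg

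The 9 genes with a match had a median log2 fold change of 0.14, from −0.22 to 0.45, and the 24 with a promoter and no match had a median of 0.13, from −0.40 to 0.67. A match describes the letters of the window and does not show that a factor bound there. A missing match likewise describes this window alone, and sequence outside it was not searched.

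The comparison of H2O2 with mock asked how the cells' messenger levels stood after 4 days of peroxide. Most of the 41 genes had small estimated differences. The log2 fold change lay within 0.25 of 0 for 23 of them and within 0.5 for 35, and 1 gene, ALDH1L2, was lower by more than 1. The synthetases leaned upward, with 14 of 17 higher and a median of 0.23, while ATF4 and its targets were split, with 14 of 24 higher and a median of 0.069. No gene passed the test over all genes (edgeR quasi-likelihood, 0 of 27514 called, 0%, lowest adjusted p over all genes 0.185), so 0 of the 41 genes are called.

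At an unadjusted p under 0.05 the test gave 3 of the 41 genes, CEBPB and KARS higher and ALDH1L2 lower, beside 856 genes higher (3.11%) and 1042 lower (3.79%) of all those tested. DESeq2 called 138 genes, 33 higher and 105 lower, and 1 of the 41, ALDH1L2 (DESeq2 adjusted p = 3.21e-05). Limma on the deposited FPKM values called 0. Both H2O2 libraries lay above both mock libraries in 10 of the 41 genes (24.4%) and below both in 5 (12.2%). The same held for 18.1% and 21.3% of all genes tested, and for 25.4% and 12.8% of the 6228 messenger RNA genes of at least 32 CPM, the level that 38 of the 41 reach. The shares for the 41 genes are thus near those of other messengers of like level. By the sign of the log2 fold change alone, 28 of the 41 genes were higher and 13 lower. Of those 6228 messengers 60.1% were higher and 39.9% lower (median 0.075), and of all genes tested 47.2% were higher and 52.8% lower (median −0.029).

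**Figure D1:**
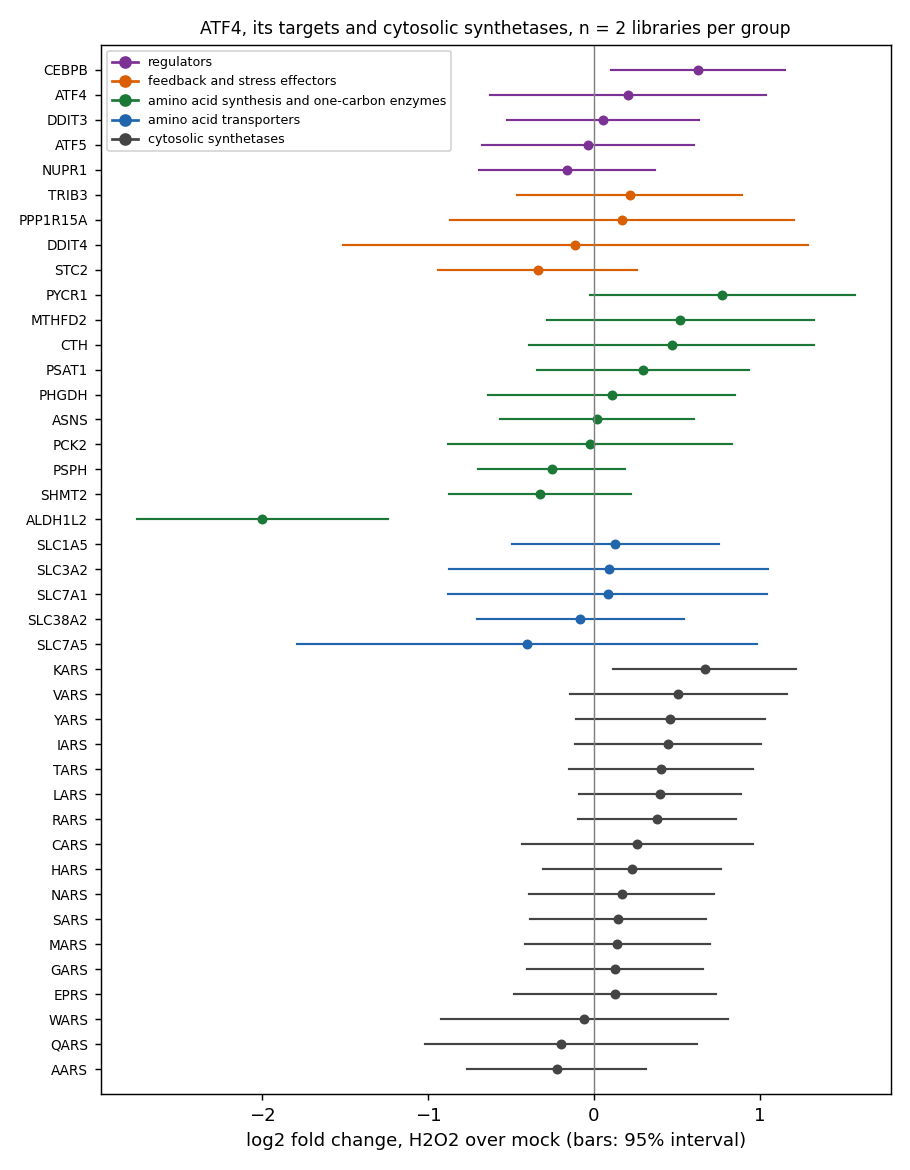
Log2 fold change of H2O2 over mock for the 41 genes, ordered within their roles, with 95% intervals from the edgeR fit (n = 2 libraries per group). The intervals of 3 genes, CEBPB, ALDH1L2 and KARS, do not include 0, and ALDH1L2 stands far below the rest.

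Of the transcription factors, ATF4 itself (chromosome 22) measured 476 (H) and 304 (Q) CPM under H2O2, against 400.5 (H) and 276 (Q) CPM under mock. Library H was the higher of the pair in both groups, and the groups overlapped. The log2 fold change of 0.21 (SE 0.33, 95% interval −0.63 to 1.04, edgeR adjusted p = 0.885) turned to −0.15 when H2O2 library H was left out and to −0.042 when mock library Q was. Its 2 transcript rows gave nearly the same reads, 95.9% to 96.5% of the chosen row in the other.

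DDIT3 (chromosome 12), the pro-apoptotic factor also called CHOP that ATF4 induces, measured 63.9 (H) and 49.2 (Q) CPM under H2O2, against 59.9 (H) and 48.9 (Q) CPM under mock. The groups overlapped, with a log2 fold change of 0.056 (SE 0.23) and a 95% interval of −0.52 to 0.64. Leaving out H2O2 library H gave −0.14, and leaving out mock library Q gave −0.087. DDIT3 overlaps MARS in the RefSeq table of GRCh38.p14, and no source used here states whether the counting used strand, so reads of the 2 genes may be shared.

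CEBPB (chromosome 20), a C/EBP factor that can pair with ATF4 and also drives liver acute phase genes, was higher in both H2O2 libraries, at 133 (H) and 105 (Q) CPM under H2O2, against 77.2 (H) and 76.4 (Q) CPM under mock. It averaged 119 ± 19.8 CPM in H2O2 and 76.8 ± 0.571 CPM in mock (SD, n = 2 each). The mock libraries differed by less than 1 CPM, and most of the spread lay in H2O2. Its log2 fold change of 0.63 (SE 0.21, 95% interval 0.10 to 1.15, edgeR adjusted p = 0.719) ranged from 0.45 to 0.81 when 1 library at a time was left out. CEBPB overlaps an antisense gene, CEBPB-AS1, and no source used here states whether its reads were counted with those of CEBPB.

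The intervals of the remaining factors spanned 0. ATF5, a relative of ATF4 that governs the mitochondrial stress response, had a log2 fold change of −0.035 (SE 0.25), with a sign that turned without H2O2 library H (0.099) or mock library Q (0.22). NUPR1, a small chromatin-binding stress protein, had one of −0.16 (SE 0.21). NUPR1 lay at 64.8 (H) and 81.5 (Q) CPM under H2O2, against 87.2 (H) and 76.7 (Q) CPM under mock, so the order of the groups differed between the letters.

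Feedback and effector genes gave no common direction. TRIB3 (chromosome 20), a pseudokinase that binds and restrains ATF4, measured 194 (H) and 139 (Q) CPM under H2O2, against 164 (H) and 123 (Q) CPM under mock. As for ATF4, library H was higher than Q in both groups, and the log2 fold change of 0.21 (SE 0.27) became −0.044 without H2O2 library H. PPP1R15A, also called GADD34, directs a phosphatase to eIF2 and so ends the response. It lay at 58.2 (H) and 107 (Q) CPM under H2O2, against 53.4 (H) and 93.9 (Q) CPM under mock. Library Q was well above library H in either group, the opposite order to ATF4 and TRIB3, and the log2 fold change was 0.17 (SE 0.41), turning to −0.18 without mock library H, or −0.32 without H2O2 library Q.

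DDIT4, also called REDD1, an inhibitor of the growth kinase mTORC1 that hypoxia induces as well, spread most between the mock libraries of these 4 genes. It measured 153 (H) and 99.2 (Q) CPM under H2O2, against 205 (H) and 67.5 (Q) CPM under mock, so both H2O2 values lay between the mock values. Its log2 fold change of −0.11 (SE 0.55) was 0.91 without mock library H and −0.71 without mock library Q. STC2 (chromosome 5), a secreted glycoprotein, was lower in H2O2, at 89.3 (H) and 81.3 (Q) CPM under H2O2, against 126 (H) and 89.8 (Q) CPM under mock. Both H2O2 libraries lay below both mock libraries, mock library Q by less than 1 CPM, with a log2 fold change of −0.34 (SE 0.24), which was −0.065 without mock library H.

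DDIT4 and STC2 were highest in mock library H, and so were most hypoxia-inducible genes. Of 15 such genes 12 were highest in mock library H and 10 were lowest in mock library Q. Their summed level was 1023 (H) and 1068 (Q) CPM under H2O2, against 2872 (H) and 654 (Q) CPM under mock, and NDRG1 (−1.24, SE 0.73; 0.37 without mock library H) and ENO2 (−1.46, SE 0.60) had the largest differences. Their part in the values of DDIT4 and STC2 was not tested.

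The enzymes of amino acid synthesis and one-carbon metabolism held the clearest difference. ALDH1L2 (chromosome 12), the mitochondrial 10-formyltetrahydrofolate dehydrogenase, which turns formyl-folate into carbon dioxide and tetrahydrofolate and makes NADPH, was lower in H2O2. It measured 2.60 (H) and 3.05 (Q) CPM under H2O2, against 9.11 (H) and 13.5 (Q) CPM under mock. It averaged 2.83 ± 0.317 CPM in H2O2 and 11.3 ± 3.11 CPM in mock (SD, n = 2 each). These values rest on 266 (H) and 365 (Q) reads under H2O2, against 882 (H) and 1636 (Q) reads under mock, and the highest H2O2 value lay well below the lowest mock value. The log2 fold change of −1.999 (SE 0.30, 95% interval −2.75 to −1.24, edgeR adjusted p = 0.719) came to −1.77 for letter H, to −2.11 for letter Q, and from −2.25 to −1.69 without 1 library at a time. By unadjusted p it stood 18th of the 27514 genes, and 78 of 16422 messenger RNA genes were as low or lower in log2 fold change.

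The other members that work in the mitochondrial folate cycle, SHMT2 and MTHFD2, had smaller estimates. SHMT2 (chromosome 12), which makes glycine and a one-carbon unit from serine, was lower in both H2O2 libraries, at 334 (H) and 279 (Q) CPM under H2O2, against 394 (H) and 373 (Q) CPM under mock. Its log2 fold change was −0.32 (SE 0.22), edgeR adjusted p = 0.774. MTHFD2 (chromosome 2), which oxidises that unit, was higher within letter H and not within letter Q, at 138 (H) and 95.8 (Q) CPM under H2O2, against 62.9 (H) and 99.9 (Q) CPM under mock. The groups overlapped, and its log2 fold change of 0.52 (SE 0.32) was made up of 1.13 for letter H and −0.060 for letter Q.

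In the serine branch, PHGDH (chromosome 1), the first enzyme of serine synthesis, measured 265 (H) and 179.7 (Q) CPM under H2O2, against 239.6 (H) and 173 (Q) CPM under mock. PSAT1 (chromosome 9), the next enzyme, measured 328 (H) and 229 (Q) CPM under H2O2, against 222 (H) and 232 (Q) CPM under mock. For both the groups overlapped, with log2 fold changes of 0.11 (SE 0.29) and 0.29 (SE 0.25). The value of PHGDH turned to −0.20 when H2O2 library H was left out and to −0.11 when mock library Q was, and that of PSAT1 was 0.012 without H2O2 library H. PSPH, the last enzyme, was lower in both H2O2 libraries, with the same small difference in either letter, −0.25 for H and −0.26 for Q (log2 fold change −0.26, SE 0.18). The estimates of the 3 steps thus did not share 1 sign.

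ASNS (chromosome 7), which makes asparagine and is the standard readout of ATF4 activity, measured 161 (H) and 153 (Q) CPM under H2O2, against 130.5 (H) and 179 (Q) CPM under mock. The groups overlapped, and its log2 fold change of 0.021 (SE 0.23), 95% interval −0.56 to 0.61, was the nearest to 0 of all 41 genes, just ahead of PCK2. Leaving out mock library H gave −0.18, and leaving out H2O2 library H gave −0.012. PYCR1 (chromosome 17), which makes proline in mitochondria, was higher in both H2O2 libraries, at 161 (H) and 89.8 (Q) CPM under H2O2, against 72.6 (H) and 74.1 (Q) CPM under mock. It averaged 125 ± 50.05 CPM in H2O2 and 73.3 ± 1.03 CPM in mock (SD, n = 2 each), and H2O2 library H stood apart from the other 3 libraries. The log2 fold change of 0.77 (SE 0.31, 95% interval −0.026 to 1.57, edgeR adjusted p = 0.719) was 0.29 without H2O2 library H.

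CTH (chromosome 1), which makes cysteine from cystathionine and so feeds glutathione, measured 27.9 (H) and 30.6 (Q) CPM under H2O2, against 14.7 (H) and 27.6 (Q) CPM under mock. Both H2O2 libraries lay above both mock libraries, and mock library H stood apart from the other 3. Its log2 fold change of 0.47 (SE 0.34) was 0.091 without mock library H. PCK2, the mitochondrial phosphoenolpyruvate carboxykinase, had a log2 fold change of −0.021 (SE 0.34), which was 0.27 without mock library H, 0.33 without H2O2 library Q and 0.0093 with DESeq2 size factors. Its shorter transcript row held 62.0% (H) and 62.4% (Q) of the reads of the chosen row under H2O2, against 58.4% (H) and 61.5% (Q) under mock.

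**Figure D2:**
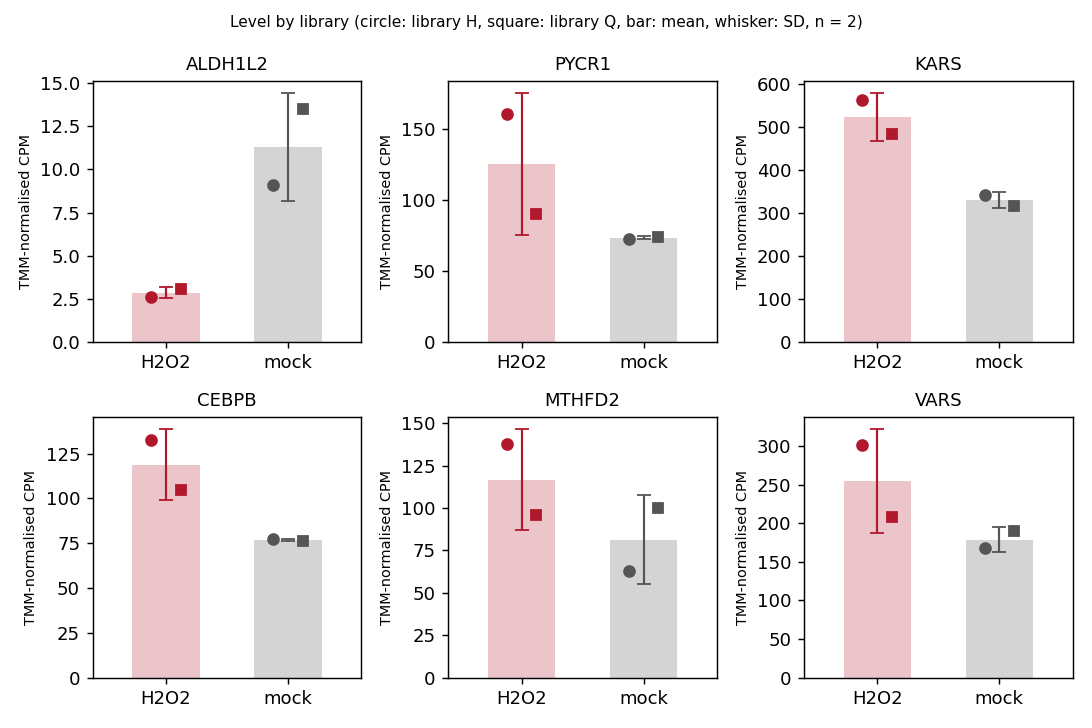
TMM-normalised CPM of 6 genes with large differences, H2O2 left and mock right, with library H as circles, library Q as squares, bars at the mean and whiskers of 1 SD (n = 2). ALDH1L2 lies at 2.60 and 3.05 CPM in H2O2 and at 9.11 and 13.5 CPM in mock, while the H2O2 values of PYCR1, MTHFD2 and VARS are spread widely between the libraries.

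The amino acid transporters differed more between the mock libraries than between the groups, whose median log2 fold change was 0.082. All 5 were higher in H2O2 within letter H (median 0.50) and all 5 were lower within letter Q (median −0.28). Of the 6228 messengers of at least 32 CPM, library Q was the higher for 2849 in mock, with a median log2 ratio of −0.049. In H2O2 it was the higher for 2373, with a median of −0.095. For the transporters, library Q exceeded library H in mock for all 5, by a median log2 ratio of 0.99, and in H2O2 for 4 of 5, by a median of 0.16. For 4 of the 5 both H2O2 values lay between the mock values, which was so for 8 of the 41 genes in all (19.5%), for 18.9% of messengers of at least 32 CPM and for 16.8% of all genes tested.

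SLC7A5, the large neutral amino acid exchanger that carries leucine, had the widest spread of them. It measured 111 (H) and 149 (Q) CPM under H2O2, against 83.6 (H) and 261 (Q) CPM under mock, with a log2 fold change of −0.40 (SE 0.55) that turned to 0.64 without mock library Q. SLC3A2, the heavy chain with which SLC7A5 pairs at the cell surface, measured 337 (H) and 423 (Q) CPM under H2O2, against 239 (H) and 475 (Q) CPM under mock (0.090, SE 0.38; −0.31 without mock library H, −0.059 without H2O2 library Q). SLC7A1, the arginine and lysine carrier, measured 59.6 (H) and 66.6 (Q) CPM under H2O2, against 38.2 (H) and 81.0 (Q) CPM under mock (0.082, SE 0.38; −0.35 without mock library H). SLC38A2, a sodium-coupled carrier of small neutral amino acids, measured 279 (H) and 285 (Q) CPM under H2O2, against 249 (H) and 348 (Q) CPM under mock (−0.082, SE 0.25; 0.18 without mock library Q). From low to high, these 4 genes share the order mock H, H2O2 H, H2O2 Q, mock Q.

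SLC1A5, the glutamine exchanger, departed from that order with its highest value in H2O2 library H, at 181 (H) and 139 (Q) CPM under H2O2, against 127 (H) and 166 (Q) CPM under mock. Its log2 fold change of 0.13 (SE 0.25) turned to −0.042 without mock library H, or −0.070 without H2O2 library H. Of 13 other amino acid transporters 3 were higher and 10 lower, with a median of −0.15. The share higher was 23.1%, against 60.1% of messengers of at least 32 CPM and 47.2% of all genes tested. Several of the 13 lay under 32 CPM on average. In mock, the median log2 ratio of library Q over H was 0.030 over all genes tested and 0.67 over the 13, of which 10 were higher in library Q. SLC7A8 (−1.44, SE 0.62) and SLC1A1 (−0.89, SE 0.72; 0.51 without mock library H) had the largest differences among them, SLC7A8 at 0.793 (H) and 1.86 (Q) CPM under H2O2, against 2.003 (H) and 5.18 (Q) CPM under mock, and SLC1A1 at 3.29 (H) and 1.84 (Q) CPM under H2O2, against 7.72 (H) and 1.82 (Q) CPM under mock.

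**Figure D3:**
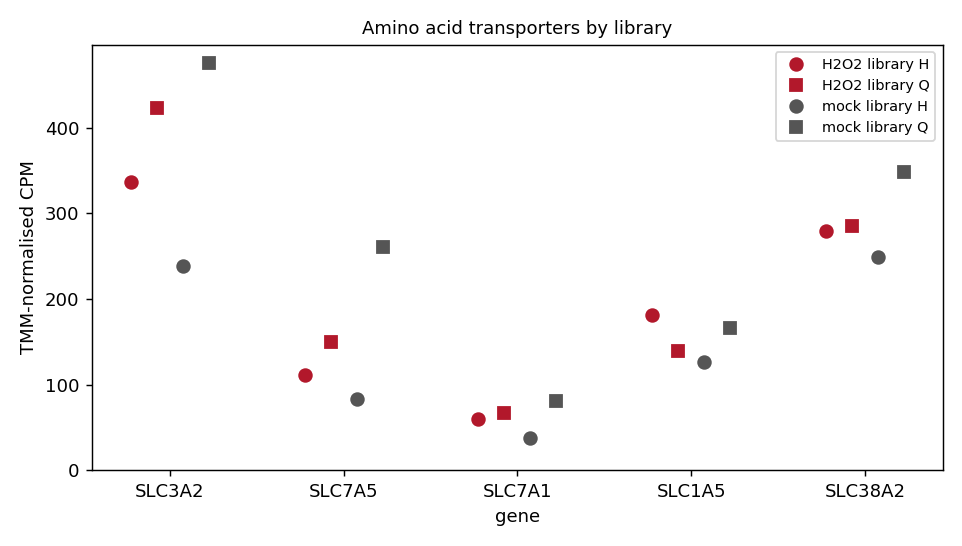
TMM-normalised CPM of the 5 amino acid transporters in the H2O2 libraries (red) and mock libraries (grey), with library H as circles and library Q as squares. For SLC3A2, SLC7A5, SLC7A1 and SLC38A2 both H2O2 values lie between those of the mock libraries.

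The cytosolic synthetases charge transfer RNAs with their amino acid in the cytosol. Of the 17, 14 were higher (82.4%, against 60.1% of messenger RNA genes of at least 32 CPM) and 3 lower in H2O2. In 7 (41.2%) both H2O2 libraries lay above both mock libraries, against 25.4% of those messengers. That separation also held for 6 of 17 mitochondrial synthetases (35.3%) and 7 of 15 genes for eIF2, its kinases and eIF2B (46.7%). Among all genes tested it held for 18.1%. The median log2 fold change of the cytosolic synthetases was 0.23, beside 0.075 for messengers of at least 32 CPM. For letter H it was 0.34, beside 0.094 for those messengers, and for letter Q 0.12, beside 0.073. Without 1 library at a time the median of the synthetases was 0.18 to 0.38. The number higher was 13 to 15 under every alternative setting tried, though 7 of the 17 changed sign without 1 library. The synthetases were chosen with earlier results known, and none passed the test over all genes.

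KARS (chromosome 16), which charges lysine and serves the cytosol and mitochondria from 1 gene, had the largest difference. It measured 561 (H) and 483 (Q) CPM under H2O2, against 342 (H) and 316 (Q) CPM under mock. It averaged 522 ± 55.3 CPM in H2O2 and 329 ± 18.1 CPM in mock (SD, n = 2 each), and the groups lay well apart. The log2 fold change of 0.67 (SE 0.22, 95% interval 0.11 to 1.22, edgeR adjusted p = 0.719) came to 0.72 for letter H, to 0.61 for letter Q, and to 0.55 to 0.79 without 1 library at a time. Of 16422 messenger RNA genes 977 were as high or higher in log2 fold change.

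VARS (chromosome 6), the valine enzyme, measured 302 (H) and 207 (Q) CPM under H2O2, against 168 (H) and 190.0 (Q) CPM under mock. YARS (chromosome 1), the tyrosine enzyme, measured 145 (H) and 115 (Q) CPM under H2O2, against 85.1 (H) and 104 (Q) CPM under mock. Both had their highest value in H2O2 library H, and neither pair of groups overlapped. Their log2 fold changes were 0.51 (SE 0.26) and 0.46 (SE 0.22), with edgeR adjusted p = 0.730 and 0.725. Without H2O2 library H the value of VARS was 0.21 and that of YARS 0.28.

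IARS (chromosome 9), which charges isoleucine, measured 439 (H) and 356 (Q) CPM under H2O2, against 290.4 (H) and 293 (Q) CPM under mock. TARS (chromosome 5), which charges threonine, measured 217 (H) and 240.1 (Q) CPM under H2O2, against 153 (H) and 193 (Q) CPM under mock. In both the lowest H2O2 value lay above the highest mock value, with log2 fold changes of 0.45 (SE 0.22) and 0.41 (SE 0.22). LARS (chromosome 5), the leucine enzyme and a leucine sensor for mTORC1, measured 159 (H) and 159.8 (Q) CPM under H2O2, against 112 (H) and 130.3 (Q) CPM under mock. RARS (chromosome 5), the arginine enzyme, measured 213 (H) and 219 (Q) CPM under H2O2, against 171 (H) and 161 (Q) CPM under mock. These 2 had H2O2 libraries that differed by little, and log2 fold changes of 0.40 (SE 0.19) and 0.38 (SE 0.19). RARS moved least of the synthetases when a library was left out, from 0.34 to 0.43.

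The remaining 10 synthetases had log2 fold changes under 0.3 in size. CARS, the cysteine enzyme, stood at 0.26, and HARS, the histidine enzyme, at 0.23. NARS for asparagine had a log2 fold change of 0.17, SARS for serine one of 0.14, and MARS for methionine one of 0.14. GARS for glycine lay at 0.13, and EPRS, which holds the glutamate and proline enzymes in 1 protein, at 0.13. WARS for tryptophan, a gene that interferon also induces, lay at −0.059, QARS for glutamine at −0.20 and AARS for alanine at −0.22, with SEs of the 10 between 0.21 and 0.34. AARS was the sole synthetase with both H2O2 libraries below both mock libraries, at 438 (H) and 401 (Q) CPM under H2O2, against 468 (H) and 512 (Q) CPM under mock. The sign turned without 1 library for CARS, GARS and QARS (mock library H), EPRS and WARS (mock library Q), MARS, SARS and WARS (H2O2 library H) and QARS (H2O2 library Q).

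**Figure D4:**
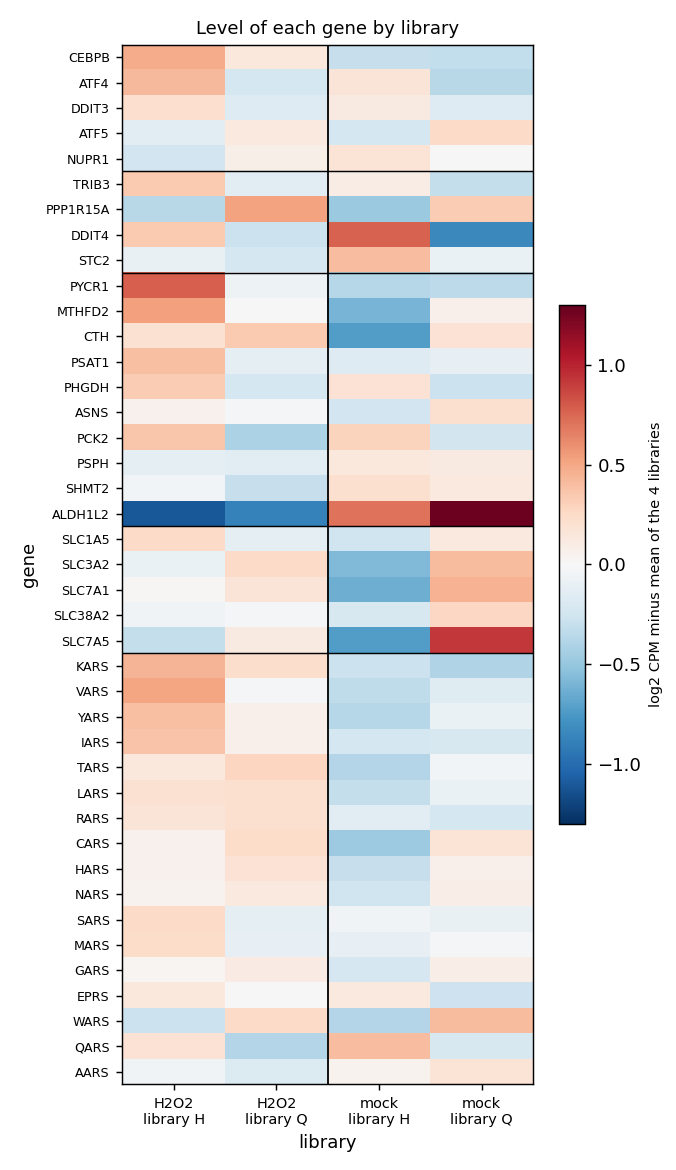
Level of each of the 41 genes in each library as log2 CPM minus the gene's mean over the 4 libraries, in the order of their roles, with H2O2 libraries left of mock libraries. The synthetases from KARS to RARS are above their mean in H2O2 libraries H and Q, apart from VARS at about its mean in library Q, while the transporters and DDIT4 are split between the mock libraries.

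Other subunits and partners of these enzymes were described from lists chosen with earlier results known. The aspartate enzyme DARS and the phenylalanine enzyme's subunits FARSA and FARSB, which are 3 further cytosolic synthetase genes, all had estimates above 0, with FARSB at 0.54 (SE 0.25), FARSA at 0.15 (SE 0.19) and DARS at 0.11 (SE 0.34). Within letter H, DARS was lower in H2O2 (−0.27). All 3 scaffold proteins of the multisynthetase complex were higher, with EEF1E1 at 0.74 (SE 0.22) and AIMP1 at 0.36 (SE 0.24). EEF1E1 measured 59.9 (H) and 44.0 (Q) CPM under H2O2, against 30.3 (H) and 31.9 (Q) CPM under mock, so its groups lay apart (edgeR adjusted p = 0.719). Of 17 mitochondrial synthetases 11 were higher and 6 lower, with a median of 0.27. The share higher was 64.7%, beside 60.1% of messengers of at least 32 CPM and 47.2% of all genes tested. Several of the 17 lay under 32 CPM on average. EARS2 (0.61, SE 0.28) and NARS2 (0.54, SE 0.27) differed most. The median of the cytosolic enzymes was 0.23, and the difference between the 2 lists was not tested.

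The steps upstream of ATF4 were described from a list of 15 genes for the eIF2 kinases, eIF2 and its exchange factor eIF2B. Of these 14 were higher (93.3%, against 60.1% of messengers of at least 32 CPM and 47.2% of all genes tested). The endoplasmic reticulum kinase EIF2AK3 was the 1 lower gene (−0.23, SE 0.21). The median was 0.17, beside 0.075 for those messengers. The eIF2B subunit EIF2B3 had the largest difference, 0.78 (SE 0.22), at 26.6 (H) and 20.8 (Q) CPM under H2O2, against 14.4 (H) and 13.2 (Q) CPM under mock, followed by the eIF2 subunit EIF2S1 at 0.40 (SE 0.25). Messenger levels do not show whether eIF2 was phosphorylated. None of these lists held a gene that passed over all genes (edgeR, adjusted p at least 0.719).

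Of the 23 other target genes of ATF4 9 were higher and 14 lower, with a median of −0.13. The share higher was 39.1%, against 60.1% of messengers of at least 32 CPM and 47.2% of all genes tested. Several of the 23 lay under 32 CPM on average. FGF21, a liver hormone of fasting and amino acid shortage, was low in all libraries and higher in H2O2, at 0.695 (H) and 0.895 (Q) CPM under H2O2, against 0.186 (H) and 0.281 (Q) CPM under mock (1.76, SE 0.41). ATF3, a repressor that many stresses induce, measured 85.7 (H) and 86.6 (Q) CPM under H2O2, against 15.6 (H) and 42.5 (Q) CPM under mock (1.57, SE 0.48). At an unadjusted p under 0.05 the list of 23 held these 2 genes and 3 lower ones, named after their values were seen. Of all genes tested 3.11% were higher and 3.79% lower at that p (edgeR). HERPUD1, which serves protein degradation at the endoplasmic reticulum, stood at −0.53 (SE 0.18), SESN2, a leucine sensor that restrains mTORC1, at −0.51 (SE 0.18), and VLDLR, a lipoprotein receptor, at −0.89 (SE 0.33). In all 3 both H2O2 libraries lay below both mock libraries (edgeR adjusted p = 0.719 for each). They were picked by p, so their separation is no further result. It held for 4 of the 23 in all (17.4%), for 21.3% of all genes tested and for 12.8% of messengers of at least 32 CPM. Of 14 other enzymes of serine, glycine, one-carbon, proline and glutamine metabolism 12 were higher. The share higher was 85.7%, against 60.1% of messengers of at least 32 CPM and 47.2% of all genes tested. These 14 had a median of 0.30, beside 0.075 for those messengers, led by GOT2 at 0.59 (SE 0.32) and MTHFD1 at 0.52 (SE 0.24). Among the 5 regulator genes the median was 0.056, among the 4 feedback and effector genes 0.027, and among the 10 enzymes of the group 0.064.

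Within the letters the 41 genes gave 33 higher in H2O2 for letter H and 22 for letter Q, with 26 of the same sign in both (63.4%). Of messengers of at least 32 CPM 61.8% were higher for letter H, 59.97% for letter Q and 70.3% had the same sign in both, and of all genes tested 66.6% had the same sign. Of the synthetases 14 of 17 had the same sign in both, of the transporters 0 of 5. The median log2 fold change of all 41 came to 0.30 for letter H and 0.027 for letter Q, against 0.094 and 0.073 for messenger RNA genes of at least 32 CPM. With 1 library per group and letter the difference between letters could not be tested.

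**Figure D5:**
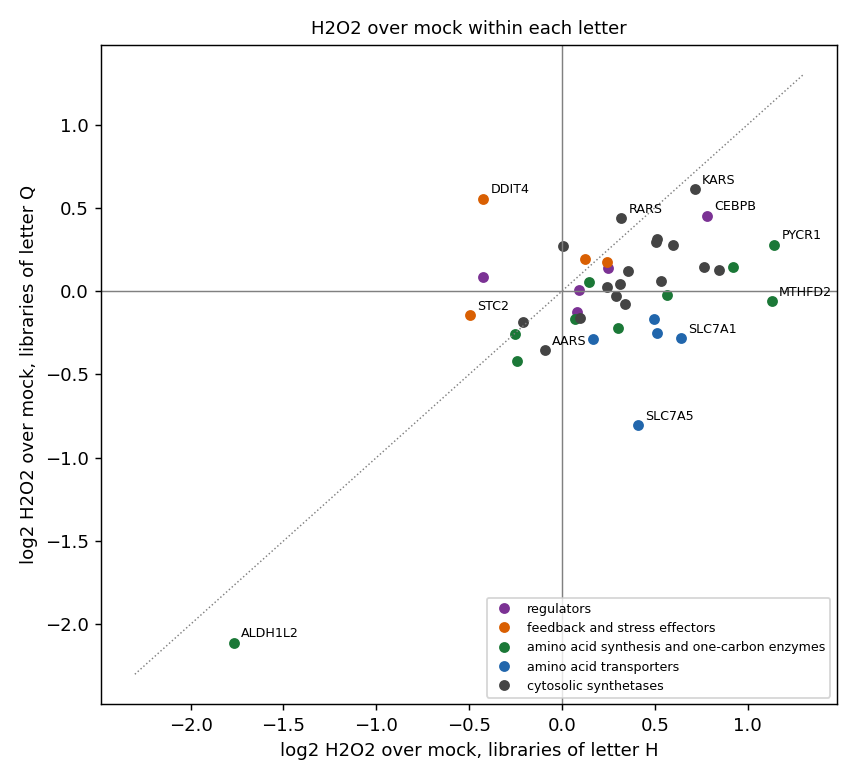
Log2 ratio of H2O2 over mock for the 41 genes within letter H (horizontal) and within letter Q (vertical), coloured by role; the dotted line marks equal ratios. ALDH1L2 lies low on both axes, KARS and CEBPB high on both, and the 5 transporters lie right of 0 and below 0.

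Per length of transcript, ATF4 was the most abundant messenger of the group and ALDH1L2 the least. As CPM per kilobase of the matched GENCODE v29 transcript, averaged over the 4 libraries, ATF4 stood at 257, KARS at 176, SLC3A2 at 170.4 and SHMT2 at 163. The level of ATF4 ran from 195 to 335 CPM per kilobase over the libraries, that of KARS ran from 130.5 to 232 and that of SLC3A2 ran from 110.5 to 219.8, so neighbours in this order overlap. NUPR1 (141), AARS (131) and PSAT1 (116) followed. At the low end stood ATF5 (15.7), CTH (13.9), SLC7A1 (8.35) and ALDH1L2 (0.937 CPM per kilobase). ALDH1L2 thus had a low level in all libraries, 0.345 (H) and 0.404 (Q) CPM per kilobase under H2O2, against 1.21 (H) and 1.79 (Q) CPM per kilobase under mock. Totals of the deposited counts exceed the mapped mates, so this order is approximate.

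Of the 41 genes 13 have named pseudogenes in the RefSeq table, among them ATF4, PSAT1, MTHFD2 and KARS, and no source used here states how reads that match both copies were counted. Among the genes described above, ALDH1L2 overlaps LOC124903005, MTHFD2 overlaps SLC4A5, SHMT2 overlaps COXFA4L2, MARS also overlaps ARHGAP9, ATF5 overlaps NUP62 and IL4I1, PCK2 overlaps NRL and YARS overlaps S100PBP, so their reads are uncertain in the same way.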

How the data were processed

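RNA of 2 H2O2 and 2 mock libraries was analysed, grouped by the treatment label. The submitters' processing notes name TopHat 1.3.3, Bowtie 0.12.2, Cuffdiff and CASAVA. The builds named were mm8, hg19 and GRCh37, without roles, and no source used here gives the counting program. The deposited tables hold, per the file headers, whole-number read counts and FPKM for 58146 transcript models. Counts of isoforms repeat many of the same reads. Among the 19 of the 41 genes with more than 1 row, the lowest row held 61.0% (PCK2) to 99.6% (IARS) of the reads of the highest. Totals of 1 row per gene (103851326 to 113082498) exceed the mapped mates, so counting precision is overstated. The deposited FPKM values do not follow reads over length: over the 41 genes they would need 2085038 to 90436014 reads in mock library H. They were used for alternatives alone. The alignment summaries, text of other numbers that the authors deposited, gave the mapped mates.

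For every gene the row of the highest read total was kept, genes were filtered by filterByExpr (minimum count 10), and the groups were tested in edgeR 4.0.16 (quasi-likelihood, two-sided) with TMM factors (0.903 to 1.12), treatment as sole term and 2 residual degrees of freedom (3.20 prior). Benjamini-Hochberg adjustment ran over 27514 genes, with a threshold of 0.05. An exact permutation test of 2 against 2 cannot go below p = 0.333. Ratios within a letter used CPM plus 0.1. DESeq2 1.42.0 and limma 3.58.1 were alternatives. The fits were also run on simulated counts, drawn for each library on its own without a difference between letters. Those counts cannot show how the fits handle such a difference. The genes and lists were chosen with earlier results of these data known, and the set of messengers of at least 32 CPM was added after the values were seen. All 41 genes are named, with every library's value for 6 set by role, for the 8 largest differences, the 5 largest among synthetases and those with separated groups and a log2 difference of at least 0.3. Others with library values were added after they were seen. Of each further list the 2 genes of the largest difference are named, and DARS, EIF2AK3, HERPUD1, SESN2 and VLDLR were named after their values were seen. Promoters, lengths and overlaps came from RefSeq (GRCh38.p14) and GENCODE v29.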

Additional observations from a re-analysis of the deposited data

How the results depend on the processing

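Over 12 alternative settings, DESeq2 called 138 genes and 1 of the 41, a fit without a filter called 9 genes, and the fit with the letter as a replicate block called 45 genes and 1 of the 41. The called member was ALDH1L2 in both cases (adjusted p = 3.21e-05 with DESeq2 and 0.0451 with the block). The block put 11 of the 41 under an unadjusted p of 0.05 (edgeR), against 3 without it. Over all 27514 genes tested the count under that p rose as well, to 5223 with the block from 1898 without it. Leaving out 1 library at a time gave 0 to 13 called genes, 13 without mock library Q, and 0 of the 41 genes each time. The other settings (DESeq2 size factors, an FPKM filter, summed rows and limma at either pseudocount) called 0 genes. The median of ATF4 and its targets ranged from −0.055 to 0.20 and that of the synthetases from 0.18 to 0.38 without 1 library. The letters name libraries and were not shown to pair them, though Q over H in H2O2 and in mock correlated across genes (r = 0.530 over 27514 genes, 0.725 over the 6546 of at least 32 CPM and 0.668 over the 41, which are not independent). The cause of the changes was not tested.

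Of the 41 genes 21 changed sign in at least 1 setting and 20 in none. Signs turned for PCK2 with DESeq2 size factors (0.0093), DESeq2 (0.0093) and summed rows (0.011). With limma on log2(FPKM + 1) and log2(FPKM + 0.1) they turned for ATF5 (0.032 and 0.033), DDIT4 (0.049 and 0.049), SLC38A2 (0.063 and 0.063) and WARS (0.025 and 0.025), and with the replicate block for DDIT4 (0.065). Without 1 library at a time, the lowest and highest log2 fold changes of the genes whose sign turned were ASNS −0.18 to 0.26, ATF4 −0.15 to 0.51, ATF5 −0.25 to 0.22, CARS −0.020 to 0.62, DDIT3 −0.14 to 0.25, DDIT4 −0.71 to 0.91, EPRS −0.064 to 0.35, GARS −0.0046 to 0.28, MARS −0.040 to 0.32, NDRG1 −1.98 to 0.37, PCK2 −0.45 to 0.33, PHGDH −0.20 to 0.38, PPP1R15A −0.32 to 0.63, QARS −0.52 to 0.14, SARS −0.052 to 0.34, SLC1A1 −1.59 to 0.51, SLC1A5 −0.070 to 0.33, SLC38A2 −0.30 to 0.18, SLC3A2 −0.31 to 0.67, SLC7A1 −0.35 to 0.72, SLC7A5 −0.99 to 0.64, TRIB3 −0.044 to 0.45, WARS −0.39 to 0.38.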
